A study of Mus musculus with 4 samples.

Results

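The loci of 10 genes that encode core or class-specific subunits of the KMT2 (COMPASS) complexes were examined for chromatin accessibility: Ash2l, Wdr5, Rbbp5, Dpy30, Setd1a, Setd1b, Cxxc1, Wdr82, Men1 and Hcfc1. A site was taken as a member when the centre of its interval lay in the body of such a gene or within 20000 bp of it (GENCODE vM1, mm9). This gave 61 sites among the 119609 intervals of the series. No interval belonged to more than 1 of the 10 loci. The assay was ATAC-seq, which marks open DNA by the insertion of sequencing adapters with a transposase. The cells were iMEF2, a single line of mouse embryo fibroblasts immortalized with an shRNA against p19Arf, with loxP sites around exon 4 of both Ash2l alleles and a tamoxifen-regulated Cre-ER. The comparison was between 2 conditions with 2 libraries each: 5 nM 4-hydroxytamoxifen for 7 days (+HOT), which activates Cre, and ethanol vehicle for 7 days (-HOT). Every library carries the floxed alleles and Cre-ER, and drug-treated cells with wild-type Ash2l were not analysed here, so effects of the drug, of Cre and of Ash2l loss cannot be told apart. The 2 libraries of a condition are technical replicates, so all p-values measure the spread between libraries only.

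KMT2 complexes place methyl groups on lysine 4 of histone H3 (H3K4), a mark of promoters and enhancers. Each complex pairs an enzyme of the SETD1 or MLL class with a shared module of Wdr5, Rbbp5, Ash2l and Dpy30, which raises the activity of the SET domain. Setd1a and Setd1b are enzymes whose complexes hold Cxxc1 (CFP1), a protein that binds unmethylated CpG, and Wdr82, which contacts RNA polymerase II. Menin, the product of Men1, belongs to the MLL1 and MLL2 complexes, and Hcfc1 is a cofactor that occurs in SETD1 and MLL complexes. The question here was whether the genes of the complex themselves gained or lost open chromatin when a shared subunit was deleted.

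The sequences below show the deleted exon, 3 of the promoters described and the centres of 2 distal sites that changed in opposite directions. They were read from the NCBIM37 (mm9) reference, 5′ to 3′, with every CG dinucleotide in capitals. Exon 4 of Ash2l lies at chr8:26946472-26946560 on the minus strand and is coding. Its 89 bases leave a remainder of 2 after division by 3. No interval of the series overlapped it, and the nearest ended 3814 bp away, so the deletion could not be checked in these data. Each promoter stretch holds the 250 bases upstream of the transcription start site (TSS): Ash2l chr8:26951252-26951501 (minus strand), Rbbp5 chr1:134373694-134373943 (plus strand) and Wdr82 chr9:106073010-106073259 (plus strand). Both distal stretches are the central 200 bases of a site, given on the plus strand, and neither overlaps an annotated exon: chr1:134417322-134417521 from a gained site beyond Rbbp5 and chr2:27359808-27360007 from a lost site upstream of Wdr5.
Ash2l exon 4: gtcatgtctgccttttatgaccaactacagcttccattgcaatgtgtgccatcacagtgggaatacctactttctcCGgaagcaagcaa
Ash2l promoter: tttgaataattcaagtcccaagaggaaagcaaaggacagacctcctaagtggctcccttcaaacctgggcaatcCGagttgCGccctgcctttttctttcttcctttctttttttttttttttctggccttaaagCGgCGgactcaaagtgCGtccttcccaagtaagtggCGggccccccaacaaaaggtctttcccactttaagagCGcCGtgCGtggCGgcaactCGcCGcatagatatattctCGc
Rbbp5 promoter: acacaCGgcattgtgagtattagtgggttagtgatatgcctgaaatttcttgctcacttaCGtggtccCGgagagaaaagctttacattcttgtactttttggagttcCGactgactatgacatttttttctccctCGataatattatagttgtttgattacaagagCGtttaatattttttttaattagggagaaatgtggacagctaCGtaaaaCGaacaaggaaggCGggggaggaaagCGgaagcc
Wdr82 promoter: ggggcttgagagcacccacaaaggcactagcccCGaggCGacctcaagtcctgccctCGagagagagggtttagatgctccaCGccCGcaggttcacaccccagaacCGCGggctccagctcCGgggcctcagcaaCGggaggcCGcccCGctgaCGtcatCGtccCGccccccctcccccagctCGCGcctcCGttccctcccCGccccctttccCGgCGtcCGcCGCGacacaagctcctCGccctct
Gained site beyond Rbbp5: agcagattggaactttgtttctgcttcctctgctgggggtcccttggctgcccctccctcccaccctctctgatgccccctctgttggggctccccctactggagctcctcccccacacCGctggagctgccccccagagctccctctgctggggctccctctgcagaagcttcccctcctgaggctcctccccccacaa
Lost site upstream of Wdr5: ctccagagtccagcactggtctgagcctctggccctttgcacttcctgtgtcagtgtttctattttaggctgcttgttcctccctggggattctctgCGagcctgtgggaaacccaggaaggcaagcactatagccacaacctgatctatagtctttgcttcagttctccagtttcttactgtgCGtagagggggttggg

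The promoter stretches of Ash2l, Rbbp5 and Wdr82 contain 13, 10 and 24 CG dinucleotides in 250 bases, and the gained and lost distal stretches contain 1 and 2 in 200 bases. Over all 10 genes, the 250 bases before the TSS held 8 to 28 CG with a median of 17. The 28 was that of Dpy30, where the TSS was set by hand and lies past the most upstream coding start. Genes with no TSS set by hand were taken at their most upstream coding start. The median over the 22367 protein-coding genes searched was 9, and 9 of the 10 members lay above it. The GC box GGGCGG, searched on both strands, was present in 5 of the 10 windows (Wdr5, Setd1a, Wdr82, Men1 and Hcfc1) and in 40.1% of all windows. CCAAT, searched on both strands and allowed to overlap the GC box, was present in Men1 alone among the members and in 35.0% of all windows. These letters are descriptions of the windows and not evidence of binding.

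The libraries held 21356440 to 37151163 reads in intervals. A member site held 16 to 1972 reads in a library. The spread within a condition was above that of counting alone (chi-square over degrees of freedom 2.38 for +HOT and 2.22 for -HOT). Levels are given as CPM, read counts scaled by the TMM-adjusted library size. For a -HOT library the number of PCR cycles was lower, and the labels do not say which replicate it was. Promoter sites were present for 12 of 12 fibroblast markers, with a median of 39.4 CPM in -HOT and 27.6 CPM in +HOT, and a range of 3.29 to 63.1 CPM and of 6.47 to 46.0 CPM. Of 13 markers of blood, endothelial, epithelial and neural cells, 8 had a promoter site, with a median of 4.26 CPM (range 1.60 to 27.9) in -HOT and 2.81 CPM (1.73 to 21.4) in +HOT. The 5 without one were the blood cell markers Ptprc, Cd79a, Cd3e and Spi1 and the neural marker Syp. The part of these marker levels in the results below was not tested. In bulk cells, a change in how many cells hold an open site and a change in how open it is in each cell cannot be told apart.

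In the main fit, the site nearest the TSS used for each gene was uncalled in all 10. Other sites at 7 of the 10 loci were called. The share of all gene loci with a called site is not given here, so this count has no background beside it. Over all tested sites 35.5% were called in either direction. The Rbbp5 promoter site was called under several other settings, as given below. Calls as gained or lost needed an adjusted p below 0.05 (edgeR quasi-likelihood test, Benjamini-Hochberg over 119603 tested sites) and a log2 fold change of more than 0.40 in size. Of the 61 member sites, 6 were gained and 9 were lost. Over all tested sites 21.3% were gained and 14.2% lost. The median log2 fold change was -0.10 over the member sites and 0.00 over all tested sites (8.8e-05). These sets differ in make-up. The median level was 8.97 CPM over the member sites and 4.51 CPM over all tested sites. Own promoters held 13 of the 61 sites and promoters of neighbouring genes 15, beside 19870 promoter sites among the 119603 tested. The part of this make-up in the medians and counts was not tested. When TMM factors came from distal sites only, the split over all sites turned from 25431 gained and 17008 lost to 21927 gained and 22600 lost, and at the member loci to 5 gained and 12 lost. A total of 24 of the 61 sites passed the adjusted p without the fold minimum, against 42.9% of all sites. The 2 libraries of +HOT lay wholly above or below those of -HOT at 40 of the 61 sites, against 70.8% of all sites. The loci of Dpy30, Men1 and Hcfc1 held no called site.

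**Figure D1:**
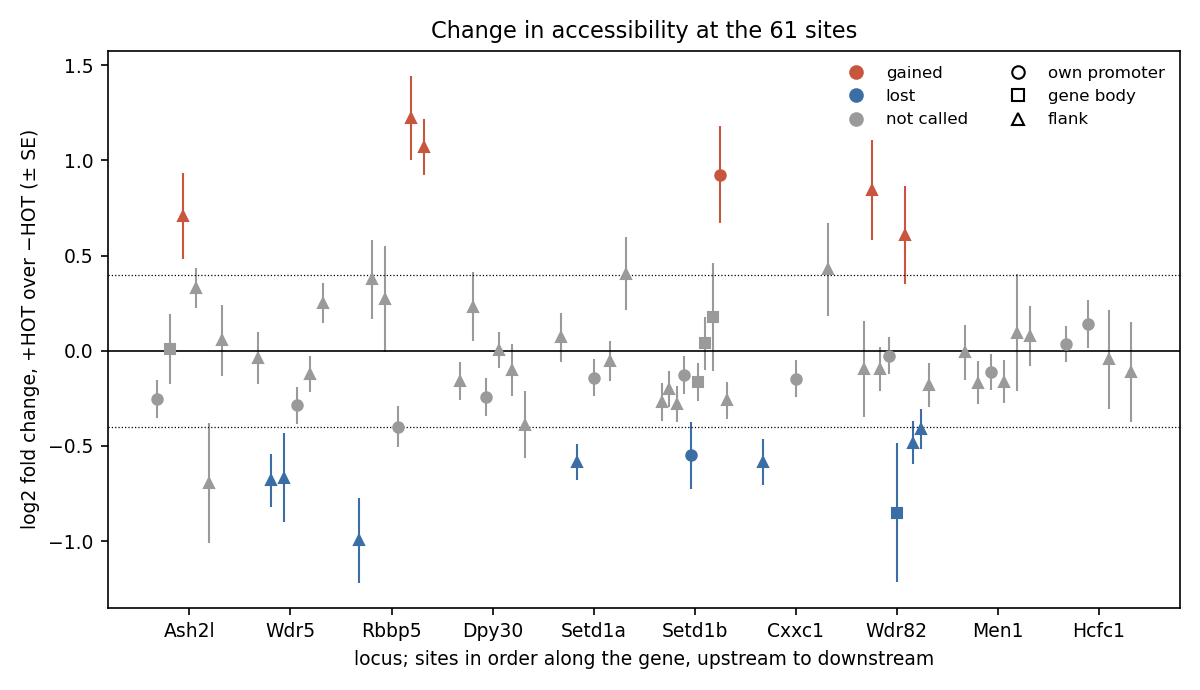
Log2 fold change of +HOT over -HOT with its standard error for each of the 61 sites, ordered along each locus from upstream to downstream. Circles are sites at a promoter of the gene itself, squares gene body sites and triangles flank sites, coloured by call, with dotted lines at the fold minimum of 0.40. The 2 highest points, at 1.22 and 1.07, are the sites beyond Rbbp5, and the points of Dpy30, Men1 and Hcfc1 are all uncalled.

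Of the 61 sites, 13 were centred within 3000 bp of a TSS of the member itself. The TSS used for each gene had such a site in all 10 cases, and the nearest is counted here. For Dpy30 this TSS was the one set by hand. The most upstream coding start of Dpy30 had no such site, the nearest being centred 4402 bp from it. A further Setd1b site, centred 1419 bp past the first TSS, was lost and is described with the other Setd1b sites. None of the 10 nearest sites was called, against 6.85% gained and 23.7% lost among the 19870 promoter sites of protein-coding genes. Their log2 fold changes ranged from -0.40 to 0.04 with a median of -0.14, against a median of -0.21 over all promoter sites. The values were below 0 at 9 of the 10, a count that was 5 with the GC trend removed, 4 with abundance-trended offsets and 10 with TMM factors from distal sites. Over all promoter sites in the main fit, the upper quartile was also below 0, at -0.021. With DESeq2, RLE size factors, TMM factors from distal sites or the GC trend removed, the count called was 1, the Rbbp5 site. That site was at -0.41 without +HOT 2 and -0.44 without -HOT 2, and the Ash2l site was at -0.41 without +HOT 1, all past the fold minimum. In edgeR 4 of the 10 had an adjusted p under 0.05, beside 48.3% of all promoter sites, and at 7 of the 10 the groups did not overlap, beside 73.4%. Per length, the -HOT level ran from 11.6 to 27.1 CPM per kb with a median of 16.9. All 10 lay above the median of 11.6 CPM per kb over all promoter sites.

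**Figure D2:**
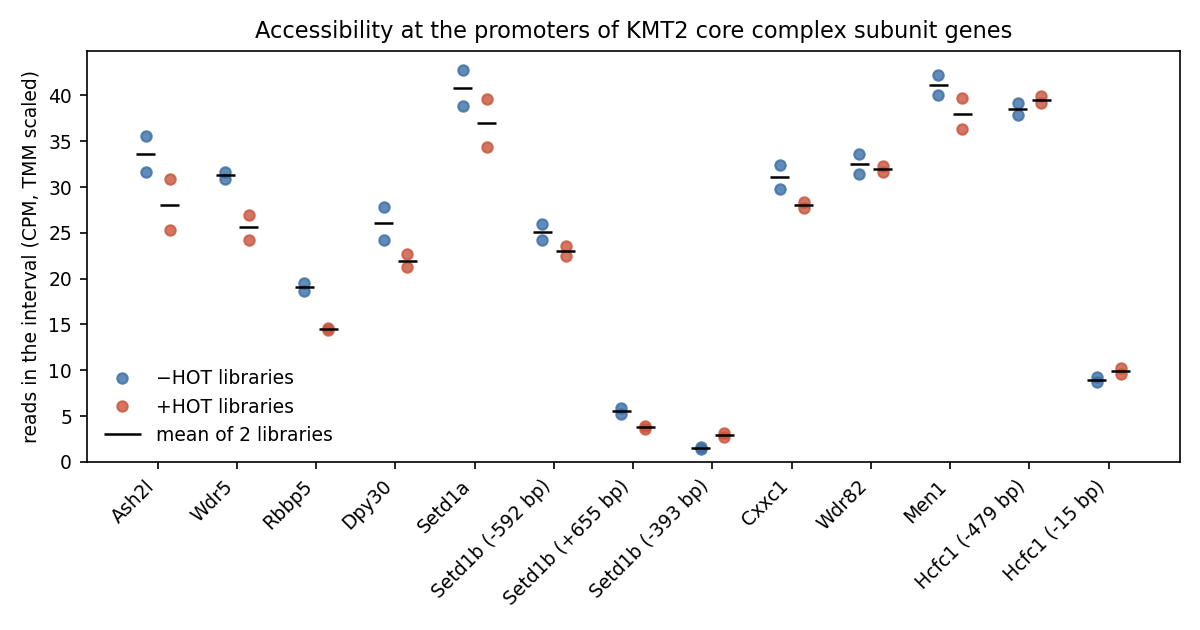
CPM in each library at the 13 sites within 3000 bp of a TSS of the member itself, with a bar at the mean of the 2 libraries of a condition. Where a gene has several, the distance from the nearest TSS is given. Relative to their level, the points of -HOT and +HOT are furthest apart at the Setd1b sites 393 bp before and 655 bp past a TSS, and they overlap at Wdr82.

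Among the shared subunits, the promoter of Ash2l, whose product is the subunit deleted here, spans chr8:26950375-26952151. It held 35.6 and 31.6 CPM in the -HOT libraries and 30.9 and 25.3 CPM in the +HOT libraries. The +HOT libraries were the lower, by a narrow gap. The means were 33.6 ± 2.82 and 28.1 ± 3.91 CPM (SD, n = 2), with a log2 fold change of -0.25 (SE 0.10, adjusted p = 0.0285, edgeR), which is under the fold minimum. Without +HOT 1 the fold change was -0.41 (adjusted p = 0.00149), past the minimum, but it was -0.12 (adjusted p = 0.368) without +HOT 2 and -0.17 (adjusted p = 0.347) without -HOT 1. With abundance-trended offsets it was -0.05 (adjusted p = 0.636). The site within the gene body, 20599 bp from the nearest TSS, held 4.08 and 4.39 CPM in -HOT and 4.46 and 4.02 CPM in +HOT, with overlapping groups.

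Wdr5, a WD40-repeat protein that bridges the enzyme and the rest of the module, has its promoter site at chr2:27369762-27371873. It held 31.7 and 30.9 CPM in -HOT and 27.0 and 24.2 CPM in +HOT. Both +HOT libraries lay below both -HOT libraries, with a log2 fold change of -0.29 (SE 0.10, adjusted p = 0.0122), under the fold minimum. The adjusted p was 0.106 without +HOT 2, 0.105 without -HOT 1 and 0.0511 without -HOT 2, and with abundance-trended offsets the value was -0.08 (adjusted p = 0.415).

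Rbbp5 binds the nucleosome and Ash2l, and its promoter came closest to the threshold. The site at chr1:134373200-134374842 held 19.6 and 18.7 CPM in -HOT and 14.4 and 14.6 CPM in +HOT. The groups were well apart, and the replicates within each lay close together. The log2 fold change of -0.399 (SE 0.11, adjusted p = 0.00125) lay just under the fold minimum of 0.40. It passed under 6 of the 12 alternatives run, with values from -0.47 to -0.21, among them without +HOT 2 (-0.41) and without -HOT 2 (-0.44). At 11.6 CPM per kb it was also the lowest of the 10 promoters in -HOT.

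Dpy30, a small protein that dimerizes and docks on Ash2l, has its promoter site at chr17:74714683-74716462. It held 27.9 and 24.2 CPM in -HOT and 22.7 and 21.3 CPM in +HOT. All +HOT values lay below the -HOT values, with a log2 fold change of -0.24 (SE 0.10, adjusted p = 0.0387), under the fold minimum, and this was the lowest adjusted p of that locus. It was -0.14 (adjusted p = 0.452) without -HOT 1 and -0.20 (adjusted p = 0.145) without +HOT 2, and -0.04 (adjusted p = 0.728) with abundance-trended offsets.

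The SETD1 enzymes gave smaller differences. The Setd1a promoter site at chr7:134919724-134921782 held 42.8 and 38.9 CPM in -HOT and 39.6 and 34.4 CPM in +HOT. The groups overlapped, and the log2 fold change was -0.14 (SE 0.10, adjusted p = 0.233). The site upstream of the first TSS of Setd1b, at chr5:123591024-123592196, held 26.0 and 24.2 CPM in -HOT and 22.5 and 23.5 CPM in +HOT. The groups did not overlap, yet the log2 fold change of -0.13 (SE 0.10, adjusted p = 0.307) did not pass the test. This site also lies at the start of AI480526, a noncoding transcript, so the 2 promoters share its reads.

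For the SETD1-specific partners, the Cxxc1 promoter site at chr18:74375078-74376651 held 29.8 and 32.4 CPM in -HOT and 28.4 and 27.7 CPM in +HOT, without overlap. Its log2 fold change was -0.15 (SE 0.10, adjusted p = 0.219). The Wdr82 promoter site at chr9:106072860-106075068 held 33.6 and 31.5 CPM in -HOT and 32.3 and 31.7 CPM in +HOT. The +HOT values fell inside the range of the -HOT values, with a log2 fold change of -0.03 (SE 0.10, adjusted p = 0.851).

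The promoters of the MLL-side subunits were also uncalled. The Men1 promoter site at chr19:6334371-6335885 held 40 and 42.2 CPM in -HOT and 39.7 and 36.3 CPM in +HOT, and had the highest level per length of the 10 (27.1 CPM per kb in -HOT). The +HOT values were the lower, with a log2 fold change of -0.11 (SE 0.10, adjusted p = 0.357). The lowest adjusted p at Men1 was 0.221, at a site 3306 bp upstream with 14.8 and 14.4 CPM in -HOT and 13.9 and 12 CPM in +HOT. The Hcfc1 promoter site at chrX:71210873-71213477 held 39.2 and 37.9 CPM in -HOT and 39.9 and 39.1 CPM in +HOT. These groups overlapped, and it was the only one of the 10 with a value above 0, a log2 fold change of 0.04 (SE 0.09, adjusted p = 0.776). A second Hcfc1 site over the start of a shorter coding transcript, at chrX:71193792-71195423, held 9.31 and 8.67 CPM in -HOT and 10.2 and 9.62 CPM in +HOT (log2 fold change 0.14, SE 0.13, adjusted p = 0.374), the lowest adjusted p of the locus.

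Setd1b differed among its own start sites. Besides the uncalled site upstream of its first TSS, a lost site lay 1419 bp past that TSS, nearer to a later one, and a gained site lay at an internal one. The lost site, in an intron at chr5:123593337-123593906, 655 bp past the start of a coding transcript, held 5.92 and 5.19 CPM in -HOT and 3.97 and 3.61 CPM in +HOT. The groups did not overlap (log2 fold change -0.55, SE 0.17, adjusted p = 0.00717). Without -HOT 1 it was -0.45 (adjusted p = 0.124). The gained site, at chr5:123612776-123613219 and 393 bp upstream of the start of an internal transcript, held 1.42 and 1.64 CPM in -HOT and 2.70 and 3.12 CPM in +HOT. Both +HOT libraries were higher, with a log2 fold change of 0.93 (SE 0.25, adjusted p = 0.00175). This call held under all 12 alternatives, though the site held only 49 to 77 reads in a library. Over the 13 promoter sites together, 1 was thus gained and 1 lost.

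The 3 remaining gene body sites of Setd1b, the highest of which held 22.3 and 24.9 CPM in -HOT and 22.3 and 19.6 CPM in +HOT, were uncalled, with overlapping groups at each. Another gene body site, in an intron of Wdr82 at chr9:106079868-106080287, was lost. Its centre lies 1094 bp from the start of Mirlet7g, a microRNA gene of the let-7 family. It held 1.14 and 1.47 CPM in -HOT and 0.562 and 0.903 CPM in +HOT, the lowest level of the 61 sites. The log2 fold change was -0.85 (SE 0.36, adjusted p = 0.0491). The call went without +HOT 1 (-0.52, adjusted p = 0.373), without -HOT 1 (-1.04, adjusted p = 0.0619) and without -HOT 2 (-0.67, adjusted p = 0.253). Of the 5 gene body sites 0 were gained and 1 lost, where 19.4% and 15.5% of all gene body sites were.

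The flanks held 43 of the 61 sites, of which 5 were gained and 7 lost. Since 20000 bp on each side takes in neighbouring genes, 15 of these sites lay within 3000 bp of a TSS of another protein-coding gene. Of the 15, 1 was gained and 5 were lost, beside 6.85% and 23.7% of all promoter sites. Of the other 28, 4 were gained and 2 lost, beside 24.0% and 12.3% of the 99463 sites away from promoters.

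The Rbbp5 locus had the most extreme values in each direction. The site at chr1:134410324-134410949, 36692 bp downstream of the Rbbp5 TSS and in an untranslated exon of Cntn2, held 1.94 and 1.74 CPM in -HOT and 4.11 and 4.56 CPM in +HOT. Both +HOT libraries were more than the -HOT pair put together, and the log2 fold change was 1.22 (SE 0.22, adjusted p = 2.2e-06). The site at chr1:134417006-134417839, in an intron of the same gene, whose middle is printed above with a single CG, held 4.31 and 4.35 CPM in -HOT and 8.99 and 9.21 CPM in +HOT. Its log2 fold change was 1.07 (SE 0.15, adjusted p = 1.61e-09). Cntn2 encodes contactin 2, an adhesion protein of neurons. These 2 calls held under all 12 alternatives, with values from 1.02 to 1.33 and from 1.00 to 1.23.

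On the other side of Rbbp5, a site at chr1:134361011-134361869, 12504 bp upstream, was lost. It held 4.83 and 3.35 CPM in -HOT and 1.90 and 2.26 CPM in +HOT, in an untranslated exon of Dstyk, which encodes a kinase. The groups did not overlap, although the -HOT libraries were far apart. The log2 fold change was -0.997 (SE 0.22, adjusted p = 0.000109), and without -HOT 1 it was -0.70 (adjusted p = 0.0581).

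**Figure D3:**
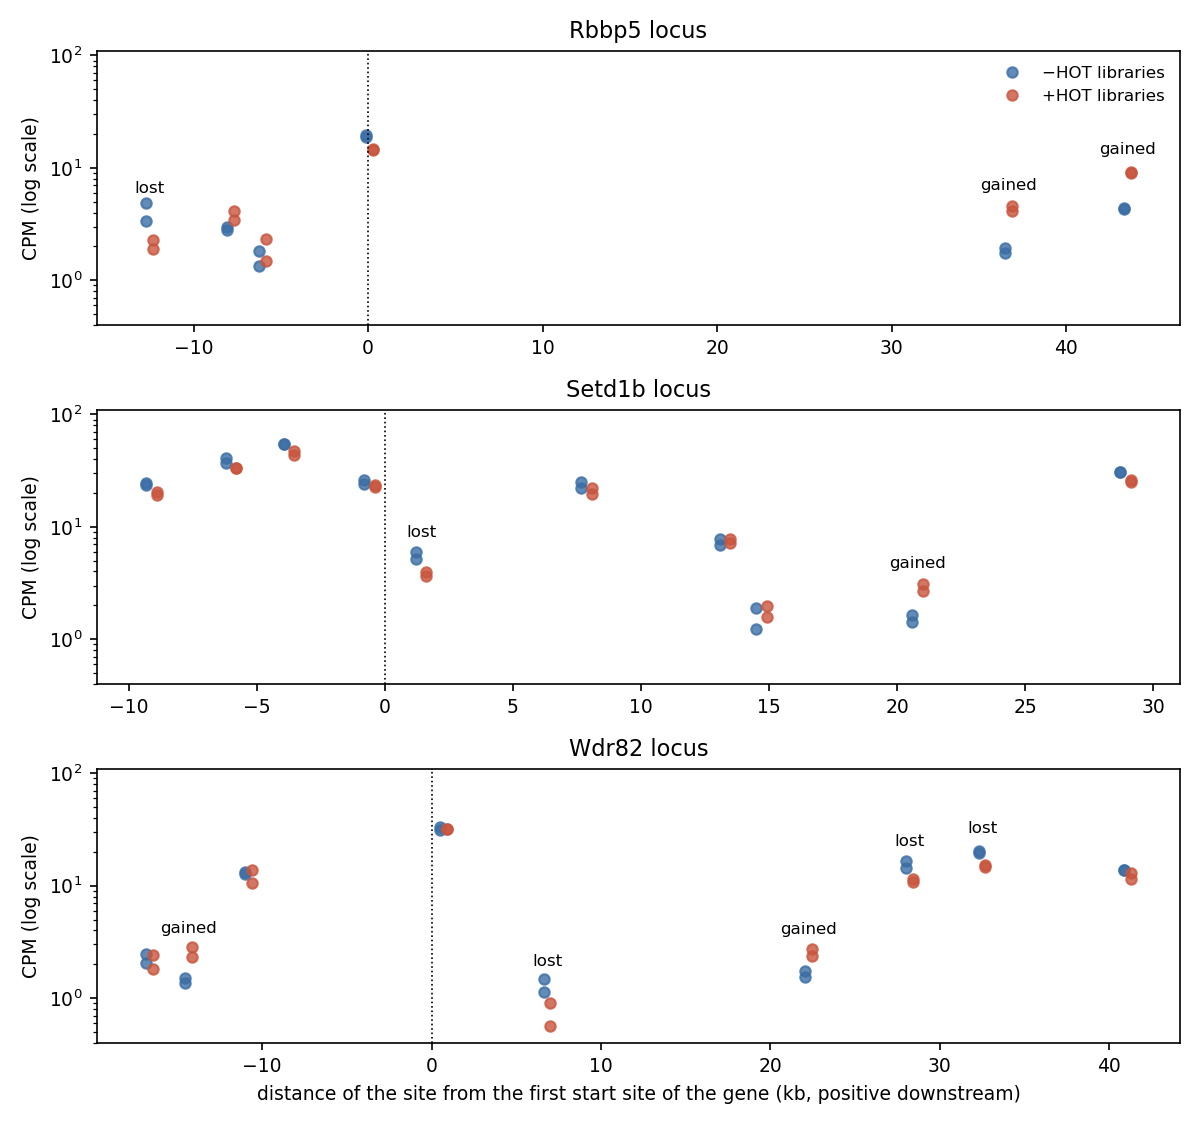
CPM on a log scale in each library at the sites of the Rbbp5, Setd1b and Wdr82 loci against the distance from the first TSS of the gene in kb, with points of the 2 conditions set slightly apart. The site nearest 0 is the highest of its locus at Rbbp5 and Wdr82 but not at Setd1b. The called site closest to a first TSS is the lost Setd1b site at 1419 bp, and the 2 gained sites of Rbbp5 lie beyond 36 kb.

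Near Wdr5, 2 sites within Brd3, which encodes a BET bromodomain protein that reads acetylated histones, were lost. The site at chr2:27359272-27360545 held 8.86 and 9.27 CPM in -HOT and 5.69 and 5.60 CPM in +HOT. The pairs were tight and wide apart (log2 fold change -0.68, SE 0.14, adjusted p = 3.46e-05), and the call held under all 12 alternatives. The second, at chr2:27360802-27361551 and 2006 bp from a Brd3 TSS, held 3.92 and 3.08 CPM in -HOT and 1.44 and 3.12 CPM in +HOT. The groups overlapped: +HOT 2 lay inside the -HOT range, and only +HOT 1 was low. Its log2 fold change was -0.67 (SE 0.23, adjusted p = 0.0145), but -0.17 (adjusted p = 0.629) without +HOT 1, -1.29 without +HOT 2 and -0.48 (adjusted p = 0.227) without -HOT 1.

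Beside Setd1a, the promoter of Orai3, which encodes a calcium channel subunit, was lost. The site at chr7:134912216-134914462 held 53.3 and 47.8 CPM in -HOT and 34.9 and 32.4 CPM in +HOT. It was among the strongest sites of all 10 loci, and the groups were wide apart. The log2 fold change was -0.59 (SE 0.10, adjusted p = 2.11e-07), and it was -0.38 with abundance-trended offsets. The Setd1a promoter 6845 bp away gave -0.14, as described above, and the difference between the 2 promoters was not tested.

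Beside Cxxc1, the promoter of Ska1, which encodes a protein of the spindle and kinetochore, was lost. The site at chr18:74366521-74367991 held 12.8 and 13.2 CPM in -HOT and 8.36 and 8.99 CPM in +HOT. The pairs did not overlap, with a log2 fold change of -0.58 (SE 0.12, adjusted p = 3.92e-05), and the call held under all 12 alternatives. Next to Ash2l, a site at chr8:26924007-26924672 in an untranslated exon of Star, which encodes a mitochondrial cholesterol transport protein, was gained. It held 2.31 and 2.08 CPM in -HOT and 3.05 and 4.2 CPM in +HOT, so +HOT 2 stood highest. The log2 fold change was 0.71 (SE 0.22, adjusted p = 0.00684), but 0.47 (adjusted p = 0.166) without +HOT 2 and 0.63 (adjusted p = 0.0619) without -HOT 2.

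The Wdr82 locus held the most called sites, 4 in the flanks besides the intron site. Downstream, the promoters of Ppm1m, a protein phosphatase gene, and Twf2, which encodes the actin-binding twinfilin 2, were lost. The Ppm1m site at chr9:106100830-106102076 held 16.5 and 14.4 CPM in -HOT and 10.8 and 11.4 CPM in +HOT. It had no overlap and a log2 fold change of -0.48 (SE 0.11, adjusted p = 0.000271), which was -0.38 without -HOT 1. The Twf2 site at chr9:106105175-106106311 held 20.3 and 19.5 CPM in -HOT and 14.7 and 15.2 CPM in +HOT. The groups were apart, and the log2 fold change of -0.41 (SE 0.11, adjusted p = 0.000778) lay just past the fold minimum, at -0.39 without +HOT 1 and -0.38 without -HOT 1.

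A pair of weak sites of that locus was gained. The site at chr9:106058814-106059063, 1503 bp from a TSS of Glyctk, which encodes glycerate kinase, and 267 bp from that of the lincRNA D030055H07Rik, held 1.50 and 1.37 CPM in -HOT and 2.84 and 2.30 CPM in +HOT. The +HOT libraries were higher (log2 fold change 0.85, SE 0.26, adjusted p = 0.0062), with 0.68 (adjusted p = 0.108) without +HOT 1 and 0.78 (adjusted p = 0.0521) without -HOT 2. The intergenic site at chr9:106095187-106095799 held 1.75 and 1.54 CPM in -HOT and 2.35 and 2.71 CPM in +HOT. The groups did not overlap, but the log2 fold change of 0.61 (SE 0.26, adjusted p = 0.047) lost its call without any 1 of the 4 libraries: it was 0.71 (adjusted p = 0.0638) without +HOT 1, 0.51 (0.195) without +HOT 2, 0.70 (0.104) without -HOT 1 and 0.52 (0.205) without -HOT 2.

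The gained and lost sites were also compared by sequence and level, which the rule did not use, and their ranges overlapped in both. The CpG ratio of an interval is its number of CG dinucleotides over the number its C and G content would give by random order. All 6 gained sites had a CpG ratio between 0.059 and 0.327, and the 9 lost sites spanned 0.174 to 0.725. Of the 15 sites with a ratio of 0.6 or more, 0 were gained and 3 lost, beside 2.57% and 23.9% of the 10084 tested sites of that kind. Of the 46 sites below it, 6 were gained and 6 lost, beside 23.0% and 13.3% of 109517. Across the 61 sites, which share the 4 libraries, Spearman's rho between CpG ratio and log2 fold change was -0.47 as a description. It was -0.24 across all tested sites.

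The level moved with the CpG ratio (rho 0.65 across the 61 sites), so these properties cannot be told apart. The gained sites held 1.44 to 4.33 CPM on average in -HOT, and the lost sites 1.31 to 50.6 CPM, a range that contains it. The -HOT level is also part of the fold change that defines a call. Of the 23 member sites under 5 CPM, 5 were gained and 4 lost, beside 30.6% and 9.19% of all tested sites of that level. Of the 38 at 5 CPM or more, 1 was gained and 5 were lost, beside 10.3% and 20.1%.

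**Figure D4:**
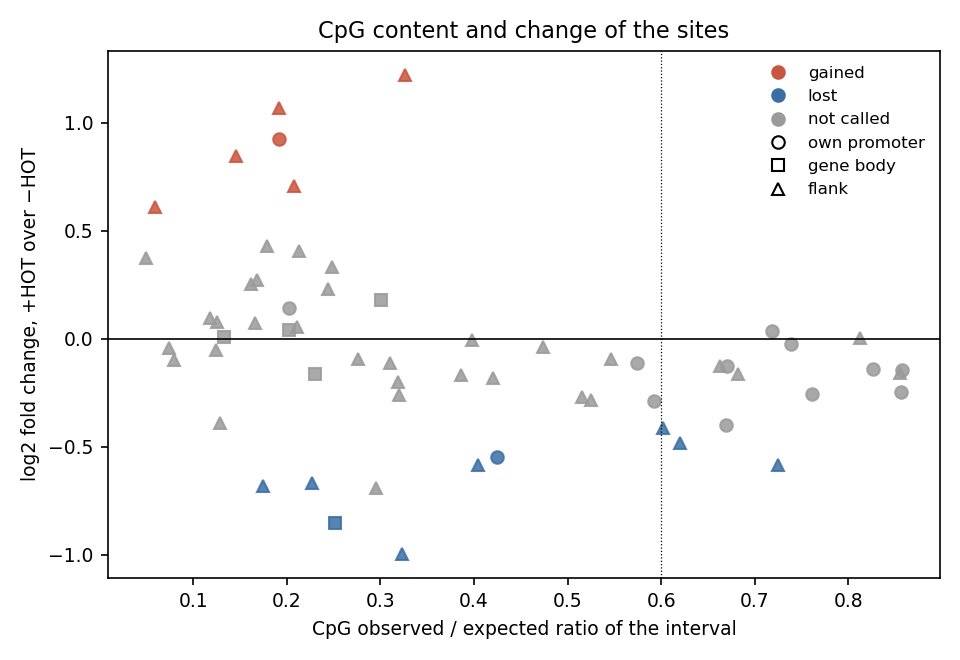
Log2 fold change of +HOT over -HOT against the CpG ratio of the interval for the 61 sites, with the same symbols and colours as in the plot by locus and a dotted line at a ratio of 0.6. All 6 gained sites lie left of 0.327, and the points right of the line reach no higher than 0.04.

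Reads were also summed over all sites of a locus and fitted over 19073 protein-coding genes. None of the 10 loci was called, beside 10.9% gained and 2.09% lost among all loci. At an unadjusted p under 0.05 the count was 5 of 10, beside 54.1% of all loci, and at an adjusted p under 0.05 it was 3 of 10, beside 47.4%. With DESeq2 0 were called. The TMM factors of this fit shifted the median over all loci by 0.13 relative to the factors of the sites (-0.14 with the factors of the sites), so the signs below hold relative to other loci. The summed CPM below are scaled by the factors of the sites. They are therefore not on the scale of the fold changes printed beside them from this fit. Rbbp5 summed to 35.5 and 32.2 CPM in -HOT and 35.1 and 36.3 CPM in +HOT, with a log2 fold change of 0.21 (SE 0.07, adjusted p = 0.0247). Its groups overlapped. Setd1a summed to 128.0 and 118.3 CPM in -HOT and 106.9 and 99.5 CPM in +HOT, with a log2 fold change of -0.12 (SE 0.04, adjusted p = 0.0164). With the factors of the sites, the values were 0.07 (adjusted p = 0.418) for Rbbp5 and -0.25 (adjusted p = 3.35e-05) for Setd1a. Hcfc1 summed to 52.4 and 50.9 CPM in -HOT and 53.9 and 52.9 CPM in +HOT, with values of 0.18 (SE 0.05, adjusted p = 0.00967) and, with the factors of the sites, 0.05 (adjusted p = 0.546). The other 7 loci had an adjusted p of 0.0567 or more in the locus fit. With the factors of the sites, 4 of these were under 0.05: Setd1b at -0.21 (adjusted p = 0.000225), Cxxc1 at -0.22 (0.00487), Wdr82 at -0.17 (0.0102) and Wdr5 at -0.16 (0.0133). The share of all loci under 0.05 with these factors is not given here, so this count has no background beside it. The median over all loci with them was -0.14, so these values are to be read against that and not against 0.

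Among 25 other genes of H3K4 methylation, 24 had a promoter site, of which 0 were gained and 3 lost, beside 6.85% and 23.7% of all promoter sites. Their median log2 fold change was -0.09. Of the 4 MLL enzyme genes, that of Kmt2a (MLL1) was lost, with 9.61 and 10.4 CPM in -HOT and 6.81 and 8.08 CPM in +HOT (log2 fold change -0.44, SE 0.13, adjusted p = 0.0047). Without +HOT 1 it was -0.31 (adjusted p = 0.117), and without -HOT 2 it was -0.38 (adjusted p = 0.062). Kmt2b, Kmt2c and Kmt2d gave -0.06, 0.13 and 0.10 and were not called.

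Of 7 further subunits of KMT2 complexes and 5 H3K4 demethylases with a promoter site, none was called, with values from -0.37 to -0.04 and from -0.22 to -0.02. The 8 readers of methylated H3K4 had values from -0.52 to 0.31 with a median of -0.19. Among them, Ing4, a PHD finger subunit of an acetyltransferase complex, was lost. It held 21.3 and 19.6 CPM in -HOT and 14.5 and 14.0 CPM in +HOT (log2 fold change -0.52, SE 0.11, adjusted p = 2.78e-05). The groups were wide apart. Spin1, a Tudor domain protein, held 24.1 and 19.9 CPM in -HOT and 16.3 and 16.9 CPM in +HOT (log2 fold change -0.41, SE 0.10, adjusted p = 0.0007). Without +HOT 1 it was -0.38, and without -HOT 1 it was -0.27 (adjusted p = 0.13).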

How the data were processed

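ATAC-seq was analysed in 4 libraries of iMEF2 cells. Per the study's methods, the authors used Trim_Galore for trimming, BWA for alignment to mm9 and MACS2 for peaks, with duplicate, unpaired and blacklisted reads removed. How peaks were merged was not stated. Values in the deposited table are unnormalized read counts of each library by interval, whose start coordinates were set from 0-based to 1-based. Columns of the authors' own comparison (fold changes, p-values), their Homer lists and their footprint tables were not used as results. Starts of the Homer lists served to settle the coordinate base.

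Intervals were placed on the NCBIM37 genome and GENCODE vM1. Counts were tested with edgeR 4.0.16 (R 4.3.3): filterByExpr, TMM, quasi-likelihood F test, +HOT against -HOT without covariates, Benjamini-Hochberg over 119603 of 119609 intervals, with calls needing an adjusted p below 0.05 and a log2 fold change of more than 0.40 in size. A promoter site is centred within 3000 bp of a TSS, and a window of 20000 bp was taken on each side of a gene. The fit was tested on simulated data. The text names for each member its promoter sites, every called site and, where none was called, the site with the lowest adjusted p, and from the list of other H3K4 methylation genes those whose promoter site was called. The members, lists and tests were chosen with earlier results of these data known. Alternatives were DESeq2 1.42.0, 5 other scalings, no filter, each library left out, the replicate number as a block, and other windows and thresholds.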

Additional observations from a re-analysis of the deposited data

How the results depend on the processing

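Of the 15 called member sites, 5 kept their call under all 12 alternatives, and none of the 15 changed sign. The share kept over all called sites of the series is not given here, so this count has no background beside it. DESeq2 gave 15092 gained sites in all and, at the member loci, 3 gained (2 in the flanks) and 0 lost in gene bodies. RLE size factors gave 2 lost promoter sites. Library totals moved the median log2 fold change to -0.031 over member sites, -0.070 over their promoter sites and -0.022 over flank sites, with 0 lost gene body sites and 1 lost pathway promoter site. TMM factors from distal sites moved the same medians to -0.18, -0.22 and -0.17, with 2 lost member promoter sites and 6 lost pathway promoter sites. Abundance-trended offsets moved them to 0.0040, 0.062 and -0.0028, and the pathway promoters to 0.10 with 1 gained and 0 lost. With the GC trend removed the medians were -0.012, 0.026 and -0.014, and 0.029 over pathway promoters with 1 gained and 1 lost. Flanks of 5 kb gave 3 gained, 2 lost and a median of -0.12. A log2 fold change over 1 left 2 gained and 0 lost, and no fold minimum gave 16 lost. The cause of these shifts was not tested beyond the construction of each setting. Leaving out a library gave 3 to 6 gained and 3 to 11 lost member sites with medians of -0.094 to -0.070. At promoters it gave 0 to 2 lost, in gene bodies 0 to 1 lost, and in flanks 2 to 5 gained, 3 to 8 lost and medians of -0.088 to -0.053. For pathway promoters it gave 0 to 1 gained, 3 to 5 lost and medians of -0.19 to -0.042.

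The replicate numbers are shared between conditions, but no label says that they pair libraries. Deviations of the replicate 1 libraries from their condition means correlated at 0.04 across the tested sites. With 2 libraries per condition the replicate 2 deviations mirror these, so they add no further pair. With the replicate number as a block, 25666 sites were gained and 17134 lost, with 6 and 9 at the member loci and no call of a named site changed. The factors of the sites for the locus sums were added after seeing the data. No locus sum was called under any setting run. With 2 technical replicates, and as few as 16 reads in a library at the weakest called site, small changes could not be measured.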
